A study of Mus musculus with 4 samples.

Results

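The Zfp genes are the mouse genes named Zfp and a number, most of which encode zinc finger proteins with C2H2 fingers. Members were the Zfp genes for which every one of the 4 site tables lists at least 1 N6-methyladenosine (m6A) site. This gave 282 of the 349 Zfp genes listed in any table, out of 12520 genes listed in all 4 tables. The other 67 Zfp genes were listed in exactly 1 (9 genes), 2 (23 genes) or 3 tables (35 genes). They held 143 and 177 untreated sites and 89 and 99 dTAG13 sites, and are not described further except where named. The measurements are GLORI libraries of polyA RNA from day 6 mouse retinal organoids, 2 without dTAG13 (0 h) and 2 after 8 h in 125 nM dTAG13. GLORI deaminates adenosine that carries no methyl group, so that it is sequenced as G, and m6A stays A. The level of a site is its A reads over the sum of its A and G reads. Both groups carry the Rx:GFP reporter, which marks retinal progenitors, and the FKBP12F36V-HA degron at the C-terminus of endogenous Mettl3, and both were grown in GMEM medium with KSR and AGN. METTL3 is the catalytic subunit of the writer complex of m6A in mRNA, and dTAG13 directs proteins with this degron to the proteasome. The genotype entries of the labels name Mettl3, Mettl4, Mettl5 and Mettl6 in turn over the 4 samples, whereas the title, design and growth text name Mettl3. No METTL3 protein value was analysed here, so the degradation itself was not tested. No line without the degron was analysed here with dTAG13, so the compound and the loss of METTL3 cannot be told apart. No label says that replicates were separate cultures, so p-values measure only the spread between these libraries.

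Many Zfp proteins carry a KRAB domain, which recruits TRIM28 and, through it, the histone methyltransferase SETDB1, HP1 proteins and the NuRD complex to silence retroviral elements and imprinted genes. Zfp genes often sit in arrays that arose by local duplication, and the fingers are usually encoded together in a long last exon. In mRNA in general, m6A lies mostly in long internal exons, near stop codons and in last exons, and YTH proteins that bind it can speed decay of the transcript. Of the 281 members that could be placed in RefSeq gene order (assembly GRCm38.p6), 141 (50.2%) lay next to another Zfp gene and 102 in runs of 3 or more. The members lay on 20 chromosomes, with 68 on chromosome 7, 34 on 17, 22 on 8, 19 on 13 and 18 on 4. Array neighbours can be close in sequence, and how reads that fit several of them were placed is not given in the sources used here, so a site in an array may belong to a near-identical copy.

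The tables list called sites only. No table went below 15 reads of A or G, 5 of A, or a level of 10%, so a position that is absent can be unmethylated, below these limits or without reads. Markers of the eye field and retinal progenitors were present, with all 8 of the list (Rax, Six3, Six6, Lhx2, Pax6, Otx2, Sox2 and Hes1) listed in all 4 tables. All 6 pluripotency markers (Pou5f1, Nanog, Zfp42, Dppa5a, Esrrb and Klf4) were listed there too, and their coverage summed to 970 and 970 untreated and 721 and 1054 with dTAG13. That of the retinal list was 3707 and 4141, against 2527 and 3956. Of the mesendoderm markers 1 of 5 was in all 4 tables and T was in none, and for neural crest and neurons it was 0 of 2 and 1 of 3. The part of other cell types in the results below was not tested.

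Fewer sites were listed in Zfp genes after dTAG13. The untreated libraries listed 4759 and 5241 member sites and the dTAG13 libraries 3412 and 4102. Both dTAG13 values lay below both untreated values. The means were 5000 ± 341 and 3757 ± 488 (SD, n = 2 each), a ratio of 0.751. With 2 libraries against 2 no p under 0.333 can be reached, and the exact two-sided permutation p was 0.333. The median member had 12 and 13 sites without dTAG13 and 8 and 10 with it. In the other genes the ratio was 0.719. Zfp genes held 1.89% and 2.00% of all sites in genes listed in all 4 tables without dTAG13, and 1.96% and 2.10% with it. These shares overlap between the groups, and the difference of 0.0836 points had an exact permutation p of 0.667.

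The unscaled coverage of these genes did not separate the groups. Gene coverage is the authors' value for how deeply a gene was read, and it is not scaled for library depth. Summed over members it was 23235 and 23860 untreated against 21140 and 27876 with dTAG13, so the groups overlap. Member sites per unit of coverage were 0.205 and 0.220 untreated against 0.161 and 0.147 with dTAG13. The groups do not overlap, and their means had a ratio of 0.727 (exact permutation p = 0.333). For the other genes this ratio was 0.868. Sums give deep genes more weight, and mean coverage of other genes reached 148000 at a median of 99.2. Gene by gene, the median change in log2((sites + 1) / coverage) was -0.48 in members and -0.32 in other genes. For log2(sites + 1) alone it was -0.41 and -0.45, and for log2 coverage with no centring 0.06 and -0.15. Members thus fell more than other genes per unit of coverage but not in site number. In classes of mean coverage (under 50, 50 to 75, 75 to 100, 100 to 150, 150 or more) site numbers fell less in members. Their ratios were 0.763, 0.709, 0.71, 0.76 and 0.885, against 0.687, 0.622, 0.635, 0.674 and 0.83 in other genes.

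Conversion moved with the result. The conversion rate of a gene is the share of its A read as G, and a low rate leaves unmethylated A that can be called as m6A. Its median over members was 95.4% and 95.5% untreated against 96.9% and 96.6% with dTAG13, so the groups do not overlap. In the 55 members whose conversion was no higher with dTAG13, the libraries listed 709 and 771 sites without it and 538 and 558 with it, a ratio of 0.741. In the 94 members whose coverage stayed within 1.5-fold over the 4 libraries, the ratio was 0.725. In the 14 members that met both conditions it was 0.719, from 321 and 349 to 242 and 240 sites. In the same subsets of other genes the ratio was 0.710, 0.694 and 0.681. The subsets on conversion were chosen after seeing the data, and the part of conversion in the fall was not tested.

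**Figure D1:**
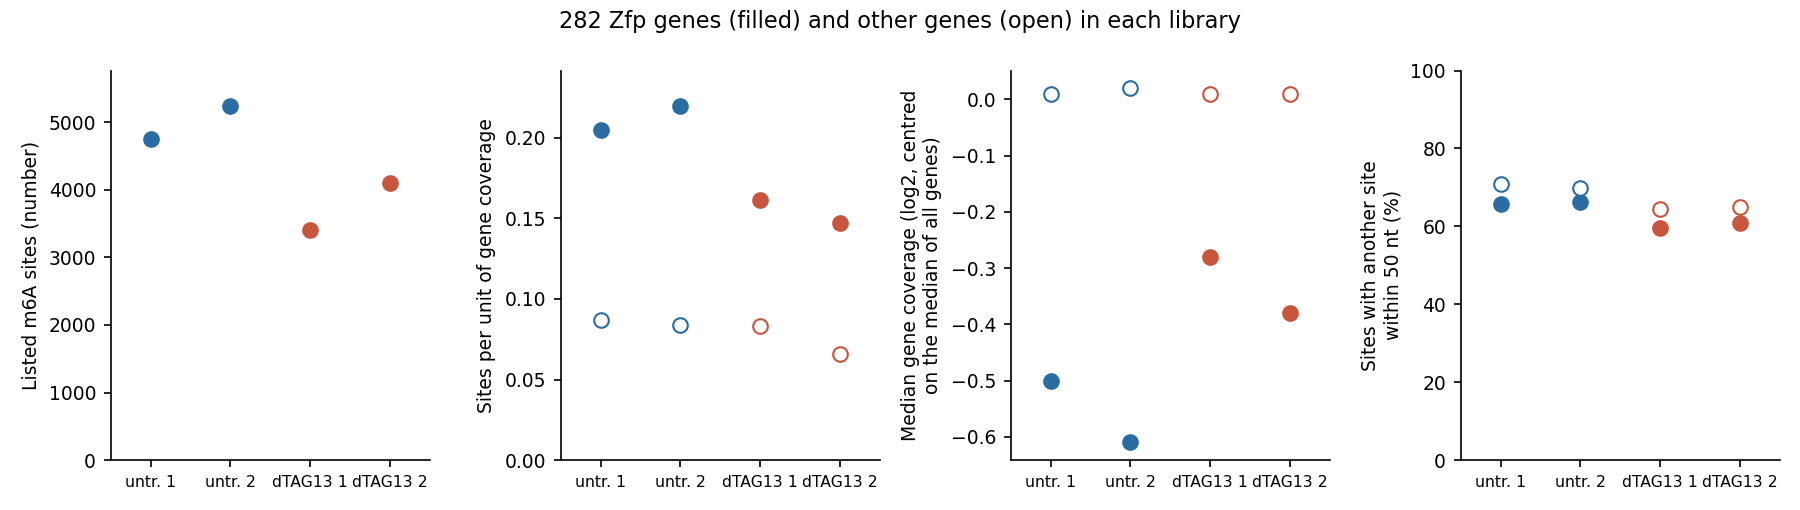
Each point is 1 library (blue, untreated; red, dTAG13). From left to right the axes give the number of listed sites in the 282 Zfp genes, the sites per unit of gene coverage, the median gene coverage (log2, centred on the median of all genes) and the share of sites with another site within 50 nt, with filled points for Zfp genes and open points for other genes. Both dTAG13 libraries lie below both untreated ones in sites (3412 and 4102 against 4759 and 5241) and above them in centred coverage of Zfp genes (-0.28 and -0.38 against -0.50 and -0.61).

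Zfp genes that were read more deeply had more listed sites. Over the 282 members, mean coverage and mean site number had a Spearman rho of 0.717, against 0.463 over the 12238 other genes. These points share libraries and depth, and genes are not independent replicates, so the values are descriptions. Members with mean coverage under 50 had a median of 5.5 untreated sites, and those at 50 to 75 had 9.5, where other genes had 3.5 and 9.5. At 75 to 100 the medians were 17.25 for members and 17.5 for other genes. Above that the members had more: 28.5 against 23.5 at 100 to 150, and 39 against 22 at 150 or more, the last from 17 members. No test of that difference was made, and transcript lengths were not used. Site numbers kept their order over libraries, with a Spearman rho of 0.79 to 0.823 between any 2 libraries, the within-group pairs at 0.823 and 0.814.

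**Figure D2:**
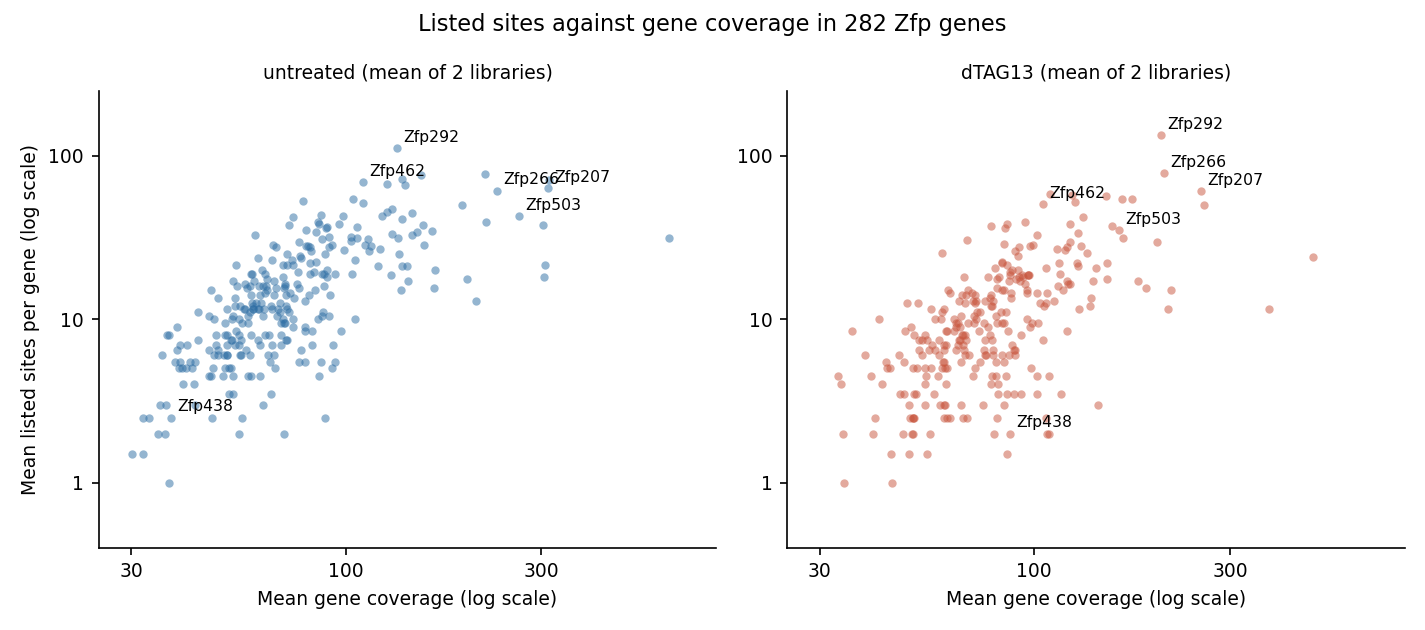
Each point is 1 of the 282 Zfp genes, with the mean gene coverage (x axis, log scale) and the mean number of listed sites (y axis, log scale) of the 2 untreated libraries on the left and of the 2 dTAG13 libraries on the right. Site number rises with coverage in both, Zfp292 is at the top, and Zfp438 has few sites for its coverage.

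Zfp292, which encodes a large zinc finger transcription factor, had the most sites. Its tables listed 83 and 139 sites without dTAG13 and 115 and 153 with it, at coverage of 124 and 142 against 177 and 231. The site numbers overlap between the groups. The change in log2(sites + 1) was 0.30 ± 0.19 (SE, limma with robust moderation over all genes, adjusted p = 0.328), and that in log2 coverage was 0.69 ± 0.19 (limma adjusted p = 0.145). Zfp292 also had the most sites per unit of coverage, 0.727 over the 4 libraries, against a median of 0.148 over members. Next were Zfp462 (0.555 sites per unit of coverage), Zfp644 (0.541), the RNA-binding protein gene Zfp106 (0.529) and Zfp638 (0.50). The fewest sites per unit of coverage were in Zfp783 (0.0204), Zfp971 (0.0234), Zfp786 (0.0256), Zfp939 (0.0320) and Zfp438 (0.0361). Zfp783 had 1 and 1 sites without dTAG13 and 1 and 2 with it.

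The other members with the most sites were Zfp266, Zfp871, Zfp219, Zfp106, Zfp207, Zfp445, Zfp664, Zfp462 and Zfp516. Zfp266 had 63 and 59 untreated sites and 67 and 90 with dTAG13, so both dTAG13 libraries lay above both untreated ones (log2 change 0.34 ± 0.20, robust limma adjusted p = 0.292). Zfp871 had 75 and 78 against 53 and 62, and Zfp219 had 75 and 79 against 60 and 49. In these 2 genes the dTAG13 values were the lower ones, and neither passed the test (robust limma adjusted p = 0.204 and 0.134). Zfp664 had 63 and 78 against 39 and 61, and Zfp516 had 73 and 61 against 59 and 45, with robust limma adjusted p of 0.170 and 0.297.

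Zfp gene sites lay close together. Another listed site of the same gene and library lay within 50 nt of 65.8% and 66.3% of member sites without dTAG13 and of 59.6% and 60.9% with it. The groups do not overlap, the difference was -5.77 points and the exact permutation p was 0.333. The other genes had 70.7% and 69.8% against 64.4% and 65%, a difference of much the same size. The number of listed sites moved with this share, and its part was not tested. The median distance from a member site to its nearest neighbour was 28 and 25 nt untreated and 31 and 31 nt with dTAG13. Sites of high level stood more alone: of those at 90% or more, 45.6% and 44.6% had a neighbour within 50 nt without dTAG13 and 36.9% and 43.0% with it. At 10 to 20% these shares were 78.2% and 79.6%, against 75% and 70.7%. Other genes without dTAG13 had 44.1% and 43.1% at 90% or more and 79.6% and 78.1% at 10 to 20%. Median reads of untreated member sites were 32 and 33 at 90% or more and 154 and 170 at 10 to 20%. The part of depth in this contrast was not tested.

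On the genome the sites of a Zfp gene were mostly in 1 short stretch. In 193 members with at least 20 listed positions spread over at least 6 kb, the densest 3 kb window held a median of 72.5% of the positions, against 58.3% in 7606 other genes. It held at least 50% of them in 164 of the 193 members (85.0%), against 66.4% of other genes. The centre of this window lay in the last 25% of the listed span, at the 3′ end, in 157 members (81.3%), against 86.7% of other genes. Members had fewer listed positions than other genes (median 52 against 72) and a shorter span (15951 against 27384 nt), which moves with these shares and was not adjusted for. Exons, UTRs and sequence motifs around sites were not assigned, because no genome of the tables' build was used here.

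The level of listed Zfp sites did not separate the groups. Its median lay at 42.4% and 38.9% untreated and at 42.1% and 41.8% with dTAG13. In other genes it lay at 27.5% and 26.3%, and at 28.8% and 28.7%. Sites at 90% or more made up 27.4% and 24.6% of the member sites without dTAG13 and 28.0% and 28.3% with it, so this share was slightly higher in both dTAG13 libraries. Reads per site differed as well, with medians of 67, 71, 67 and 85 in members and 100, 103, 89 and 116 in other genes, in the order of the libraries above. Listed levels are lower where depth is higher, and at few reads only a high level meets the limit of 5 A reads. In untreated replicate 1 the median member level was 96.4% at 15 to 29 reads, 40.3% at 50 to 99 and 17.2% at 200 or more, against 94.7%, 32.8% and 15.7% in other genes. Within classes of reads the median was higher in members in 19 of the 20 combinations of 4 libraries and 5 classes, and equal in 1. No test of this difference was made.

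Members in arrays had higher listed levels than members outside them. The 141 members next to another Zfp gene had 1989 and 2075 sites without dTAG13 and 1455 and 1750 with it, a ratio of 0.789, and a median level of 46.6% without dTAG13 and 45.0% with it. The 140 not next to one had 2769 and 3165 against 1956 and 2350 sites, a ratio of 0.726, and median levels of 37.1% and 39.7%. These differences were not tested. Median coverage was 68.7 and 75.6 in these 2 sets, and the part of depth in the difference was not tested.

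Single positions recurred little between libraries. The 4 tables listed 16302 different member positions. Of these 15207 (93.3%) were in 1 table, 990 in 2, 93 in 3 and 12 in all 4, where other genes had 91.1% in 1 table. The untreated pair shared 391 member positions and the dTAG13 pair 148, and the 4 mixed pairs shared 163 to 235. The excess of the untreated pair was greatest at high levels. Positions with a mean of 10 to 40% numbered 172 in the untreated pair and 97 to 144 in mixed pairs. Those of 40 to 90% numbered 147 in the untreated pair, 45 in the dTAG13 pair and 49 to 78 in mixed pairs. Near-complete ones, with a mean of 90% or more, numbered 72 in the untreated pair, 2 in the dTAG13 pair and 8 to 17 in mixed pairs. Other genes had the same order, with 1852, 217 and 258 to 324 such positions. The number of sites listed at 90% or more, shared or not, came to 1304 and 1291 untreated and 955 and 1161 with dTAG13. Near-complete positions that both libraries of a group list were thus fewer with dTAG13, in Zfp genes and in other genes, while each dTAG13 table still listed many such positions of its own.

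The same was seen from each untreated library in turn. Untreated replicate 1 had 2953 member sites at 50 reads or more, and untreated replicate 2 listed 10.2% of them (Wilson 95% interval 9.12 to 11.3%). In dTAG13 replicates 1 and 2 the shares were 4.30% (3.63 to 5.09%) and 5.15% (4.41 to 6.00%). Of the 3370 in untreated replicate 2, the first untreated library listed 8.64% (7.73 to 9.63%), and 4.87% (4.19 to 5.65%) and 5.55% (4.83 to 6.37%) in the dTAG13 libraries. Averaged over both references, a dTAG13 library recovered 0.534 of what the other untreated library did, against 0.559 in other genes. By level this ratio was 0.806 at 10 to 20%, 0.603 at 20 to 40%, 0.264 at 40 to 90% and 0.312 at 90% or more. In other genes it was 0.746, 0.535, 0.307 and 0.276. Each reference has 1 background library, so these shares have no test across libraries, and their intervals cover counting error only. The dTAG13 tables also list fewer sites in all, which lowers such shares.

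**Figure D3:**
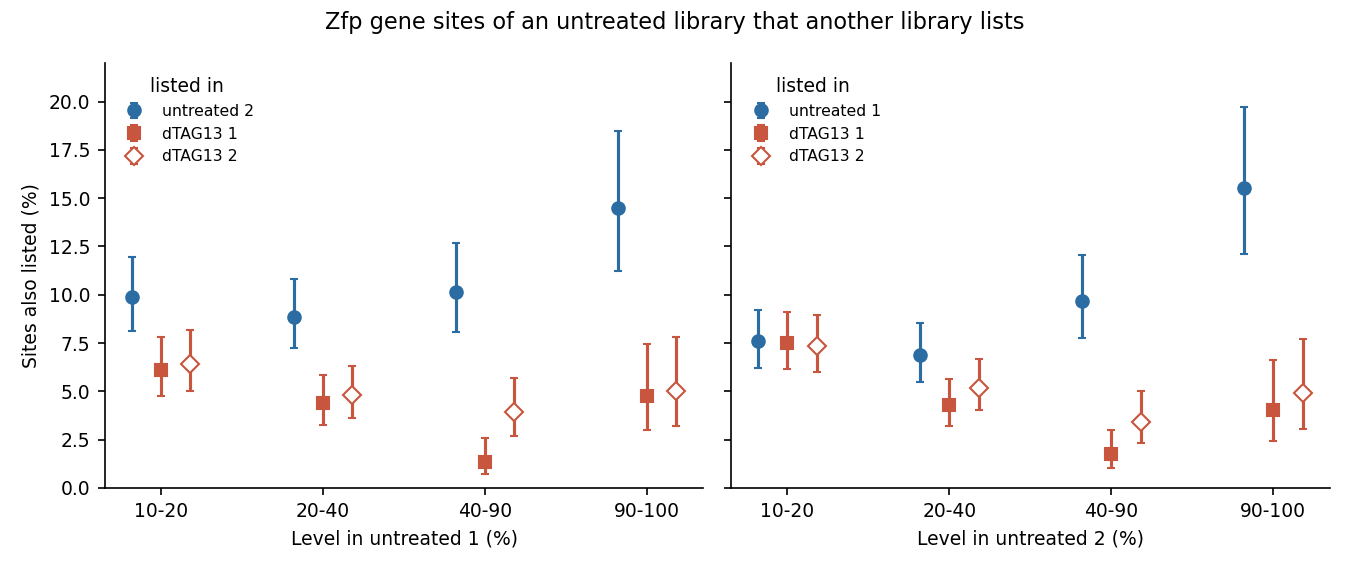
The y axis gives the share of Zfp gene sites at 50 reads or more in untreated replicate 1 (left) or 2 (right) that another library also lists, by the level in the reference library (x axis, %). Points are shares and bars Wilson 95% intervals (blue, the other untreated library; red, the dTAG13 libraries). At 40 to 90% and at 90 to 100% the blue intervals lie above the red ones, whereas at 10 to 20% with either reference, and at 20 to 40% with replicate 2 as reference, a blue interval overlaps a red one.

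The 72 positions at a mean of 90% or more in the untreated pair lay in 58 Zfp genes. They were chosen on their untreated values, so that part of a lower value elsewhere follows from the choice, and their levels are given with no test except where the test over all sites holds them. Of the 72, 59 were in neither dTAG13 table. The other 13 (18.1%, Wilson interval 10.9 to 28.5%) had a median level of 31.9% where listed, and 9 of them were lower by at least 20 points. The remaining 4, in Zfp263, Zfp871, Zfp472 and Zfp865, stayed within 5 points of their untreated mean. In other genes, 370 of 1852 such positions (20.0%) were listed after dTAG13, so the Zfp share was close to theirs. The median change of the listed ones was -65.8 points in Zfp genes and -54.6 points in other genes. The Zfp871 site (chr17:32992540, minus strand) had 100% and 99.2% without dTAG13 and 100% in dTAG13 replicate 1, at 105, 383 and 241 reads. Levels were also lower in the class of 40 to 90%. Of 147 positions, 15 were listed after dTAG13, 13 of them lower, with a median change of -30.1 points. In other genes 884 of 6871 were listed, 720 of them lower, with a median change of -29.5 points. At 10 to 40%, 40 of 172 were listed and the median change was -0.64 points, against 0.44 points in other genes. In the other direction, the 45 positions at 40 to 90% in the dTAG13 pair had 17 listed without dTAG13, with a median change of -13.3 points.

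Of the 72 positions, 20 had at least 50 reads in both untreated libraries, and 7 of these were listed after dTAG13. The 13 that were not lay in Zfp870, Zfp81, Zfp318, Zfp292, Zfp68, Zfp655, Zfp638, Zfp553, Zfp771, Zfp94, Zfp260, Zfp772 and Zfp105. In Zfp655 the site at chr5:145181889 (plus strand) had levels of 88.3% and 99.8% at 333 and 524 reads. In Zfp638, which encodes a nuclear RNA-binding protein, chr6:83905744 (plus strand) had 98.1% and 98.0% at 106 and 147 reads. Zfp292 and Zfp655 each held 4 of the 72 positions and Zfp638 held 3. Coordinates are as the tables list them, in a build whose contig names are those of GRCm39.

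The 5 most negative changes among sites listed in both untreated tables and at least 1 dTAG13 table, with at least 50 reads in each, all came from this class. In Zfp57, a KRAB repressor that keeps methylation at imprinting control regions, chr17:37321215 (plus strand) had 98.8% and 86.6% without dTAG13 and 12.3% in dTAG13 replicate 2. In Zfp503, a transcriptional repressor of neural and eye development, chr14:22035968 (minus strand) had 99.5% and 100% against 22.2% in dTAG13 replicate 2, at 188, 135 and 477 reads. These sites lost most of their level in the 1 dTAG13 table that lists them. Zfp534 (chr4:147758377, minus strand) went from 100% and 95.2% to 23.3% in dTAG13 replicate 1. Zfp12 (chr5:143233481, plus strand) had 97.2% and 96.5% against 26.7% in dTAG13 replicate 2, and Zfp64 (chr2:168767368, minus strand) had 100% and 95.4% against 31.9% in dTAG13 replicate 1. Over all 46 member sites that met these conditions, 31 were lower with dTAG13, and the median change was -4.67 points. Without the limit on reads it was 45 of 68 member sites, against 2752 of 4904 sites in other genes. In the mirror choice, 49 member sites of the dTAG13 pair were also listed without dTAG13, and 30 of them were lower there. The part of this choice in the counts was not tested. No replicated test was possible for sites with 1 dTAG13 value.

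**Figure D4:**
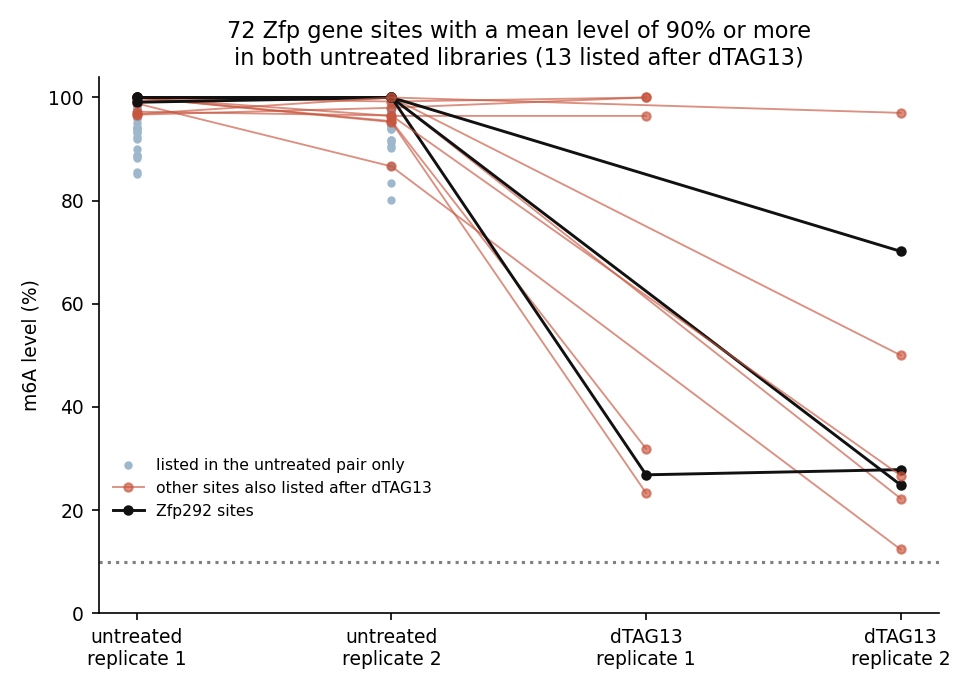
Each point is the m6A level (y axis, %) of a Zfp gene site in 1 library (x axis), for the 72 sites whose mean level was 90% or more in both untreated libraries. Lines join the values of the 13 sites also listed after dTAG13 (black, Zfp292), pale points are the 59 that were not, and the dotted line is the listing limit of 10%. Of the 13 lines, 9 drop by at least 20 points and 4 stay level.

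The test of levels over all features used the 2321 sites listed in all 4 tables with at least 20 reads in each, of which 12 lay in 10 Zfp genes. Over all sites the quasi-binomial test with Benjamini-Hochberg adjustment called 51 lower (2.2%) and 2 higher (0.0862%) with dTAG13. Of the 12 member sites 1 was called, and 2 had an unadjusted p under 0.05, against 9.35% of all sites. At 3 member sites the dTAG13 values were both under the untreated ones (background 19.4%), at 1 they were above (background 17.8%), and 8 overlapped. The median change was -1.81 points, against 0.104 over all sites tested. With 12 sites these shares say little about Zfp genes as a group.

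The called site was in Zfp292, at chr4:34806594 on the minus strand. Its level was 99.1% and 100% untreated and 26.8% and 27.8% with dTAG13, at 108 and 48 reads against 41 and 194. The groups are far apart, and the change of -72.2 points had an adjusted p of 0.00891 in the quasi-binomial test over all 2321 sites. The call was lost when any 1 library was left out, as were all other calls over the 2321 sites, while the change stayed between -72.7 and -71.7 points. Such a run leaves 1 library in a group. With the replicate number as a block the call was lost too (quasi-binomial adjusted p = 0.130), and 0 of all sites were called. A nearby Zfp292 site listed in all 4 tables, chr4:34805159, had 84.0% and 12.3% without dTAG13 and 21.8% and 14.2% with it, so its groups overlap (adjusted p = 0.997). The first of these values rests on 25 reads.

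Other Zfp292 sites at 100% in both untreated tables were chr4:34811319, listed at 24.9% in dTAG13 replicate 2, and chr4:34811648, listed at 70.2% there. Not every site fell. One at 4.922 kb upstream of the 3′-most listed position had 53.3% in untreated replicate 1 and 100% in both dTAG13 tables, at 15 to 30 reads. In all, 16 and 20 of the listed Zfp292 sites (19.3% and 14.4%) were at 90% or more without dTAG13, and 2 and 8 (1.7% and 5.2%) with it. Zfp292 thus had overlapping numbers of listed sites but fewer at near-complete level in both dTAG13 libraries. Its median reads per site were 92 and 110 without dTAG13 and 96 and 164 with it, and deeper sites have lower levels, so the part of depth in this was not tested. Of its sites, 91.6% and 95.7% without dTAG13 and 87.8% and 92.8% with it lay in the 9 kb upstream of its 3′-most listed position. That stretch was chosen after the positions were seen.

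**Figure D5:**
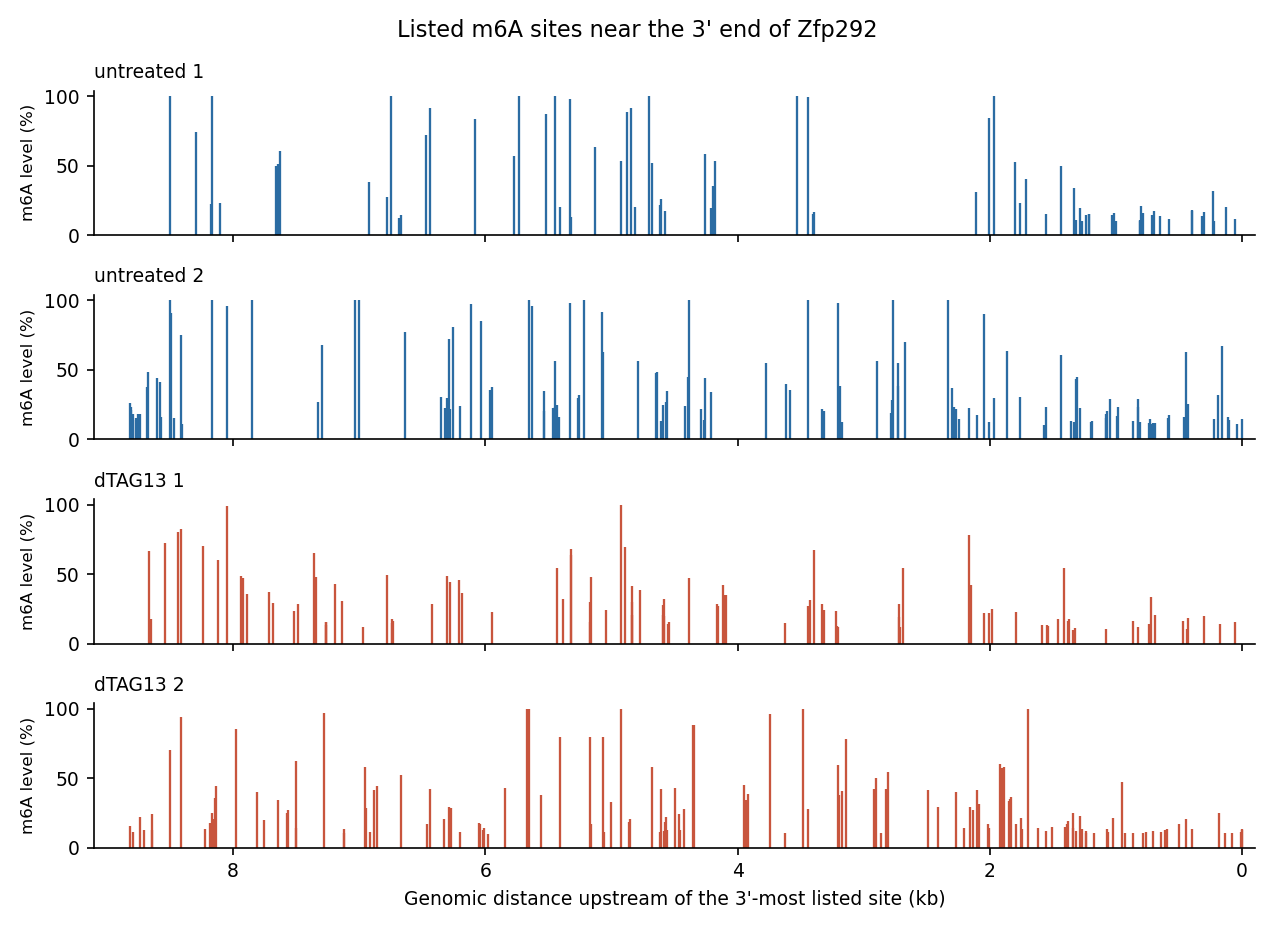
Each vertical line is a listed site of Zfp292 in the library named above the panel, at its genomic distance upstream of the gene's 3′-most listed site (x axis, kb, 5′ to the left) and with its m6A level as height (y axis, %). The 9 kb shown hold 76 and 133 untreated sites, of 83 and 139 in all. Lines at or near 100% are more frequent in the 2 upper panels.

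The other tested sites moved less. Zfp606 had a site (chr7:12229211, plus strand) at 24.8% and 18.4% untreated against 10.6% and 12.7% with dTAG13, a change of -9.91 points (quasi-binomial adjusted p = 0.408). In Zfp91, which encodes an E3 ubiquitin ligase, chr19:12745988 (minus strand) had 10.8% and 10.9% against 27.0% and 14.5% (quasi-binomial adjusted p = 0.661). The deepest pair of sites, chr4:128667058 and chr4:128667052 in Zfp362, had 1430 to 3276 reads per library. The first had 16.8% and 14.3% untreated against 15% and 13.9% with dTAG13. The second had 13.1% and 18.1% against 17.9% and 14.6%. The other 6 tested sites, in Zfp984, Zfp608, Zfp639, Zfp985, Zfp397 and Zfp622, had adjusted p of 0.698 to 0.997. Among them Zfp639 (chr3:32574236, plus strand) had 27.3% and 16.3% against 14.1% and 15.6%, the groups apart. Both Zfp362 sites overlap between the groups, so the deepest Zfp sites, which are of low level, showed no difference beyond the spread between libraries.

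Site number per gene was tested over all 12520 genes with limma on log2(sites + 1). Fitted as planned, limma called 0 of the 282 members and 0 of all genes, with 45 members at an unadjusted p under 0.05. In simulated data that fit recovered 0% of genes given an 8-fold fall, so its 0 was not read as an absence of change. The simulation used a fixed dispersion and left the remaining genes unchanged, whereas the median log2 change of all genes here was -0.45. It therefore does not measure recovery in these data, with or without robust moderation. Robust moderation of the variances was then added with that 0 known. With it, 4 members were called lower and 0 higher (1.42%), against 4.09% of all genes lower and 0.00799% higher. An unadjusted p under 0.05 was reached by 59 members, 57 of them lower, or 20.9% against 24.2% of all genes. The median log2 change was -0.41 in members and -0.45 in other genes. Both dTAG13 libraries lay below both untreated ones in 109 members (38.7%, background 44.6%) and above in 10 (3.5%, background 4.53%), and 163 overlapped. Zfp genes were thus near or under the background of all genes on each count.

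The 4 called members were Zfp629, Zfp367, Zfp521 and Zfp326. Zfp629 had 38 and 38 sites without dTAG13 and 16 and 14 with it, a log2 change of -1.29 ± 0.32 (SE, robust limma adjusted p = 0.0271), and coverage of 86.1, 85.8, 80.1 and 89.1. Zfp367 had 29 and 26 sites against 11 and 8 (-1.45 ± 0.39, robust limma adjusted p = 0.0359). In Zfp629 the dTAG13 site number was 0.395 of the untreated one, and the coverage change was 0.06 on the log2 scale. Zfp521, a regulator of neural and blood progenitors, had 41 and 37 against 18 and 17 (-1.11 ± 0.30, robust limma adjusted p = 0.0384). Zfp326, a nuclear protein that links splicing and transcription elongation, had 48 and 30 against 16 and 18 (-1.12 ± 0.32, robust limma adjusted p = 0.0483). In each of the 4 the groups do not overlap. None was called with the replicate block or when sites were divided by coverage, and in both runs 0 of all genes were called. The calls were also lost, as were those of all other genes, when any 1 library was left out, which leaves 1 library in a group. All 4 stayed lower in every alternative run.

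Site numbers have no fixed scale, and the calls depend on it. Centring each library on its median gene moved the median change of all genes from -0.45 to 0.07, and then 0 members were lower and 3 higher (Zfp266, Zfp292 and Zfp646), against 20 lower and 68 higher over all genes. With total listed sites as library size, edgeR called 0 members lower and 2 higher (Zfp266 and Zfp292), against 17 and 33 over all genes. With equal library sizes edgeR called 12 members lower and 0 higher, against 909 and 6 over all genes. Among genes with a mean of at least 5 sites, robust limma called 14 members lower and 0 higher, against 966 and 7 over all genes.

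The most negative changes among members with a mean of at least 10 sites began with Zfp593, at 15 and 16 sites without dTAG13 and 1 and 8 with it (log2 change -1.96 ± 0.61, robust limma adjusted p = 0.0607). Zfp715 had 17 and 16 against 3 and 7 (-1.63, adjusted p = 0.0627). Zfp970, Zfp160, Zfp329, Zfp938, Zfp442 and Zfp661 had log2 changes of -1.28 to -1.34, with adjusted p of 0.0643 to 0.125, and none of these 8 passed the test. Zfp442 had 16 and 16 sites against 6 and 6. The most positive changes were in Zfp937 (8 and 13 sites against 18 and 22, log2 change 0.90), Zfp646 (26 and 7 against 18 and 34, log2 change 0.81), Zfp768, Zfp426 and Zfp811. Their adjusted p were 0.190 to 0.625. In Zfp937 the groups do not overlap, and in Zfp646 they do.

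Among KRAB repressors of imprinted or retroviral loci, 3 of 4 were members and none was called (background 4.09% lower). Both dTAG13 libraries lay below both untreated ones in 1 of the 3 (background 44.6%). Zfp568, which represses a placental promoter of Igf2, had 47 and 55 sites against 24 and 31, the groups apart (log2 change -0.87 ± 0.26, robust limma adjusted p = 0.0549). Zfp445, which acts with Zfp57 at imprints, had 60 and 73 against 62 and 52. Zfp57 had 29 and 37 against 23 and 36. Both overlap between the groups. Zfp809, which silences murine retroviruses, had 7 and 4 sites against 0 and 5 and was no member.

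Among pluripotency and general promoter factors all 4 were members and none was called (background 4.09% lower). Both dTAG13 libraries lay below both untreated ones in 2 of the 4 (background 44.6%). Zfp281, a repressor and activator in pluripotent cells, had 41 and 44 sites against 25 and 29, and Zfp462 had 59 and 79 against 51 and 50, with the groups apart in both (robust limma adjusted p = 0.152 and 0.220). In Zfp281, chr1:136555075 (plus strand) had 100% and 100% without dTAG13 at 16 and 18 reads and 50.0% in dTAG13 replicate 2. Zfp42, also called Rex1, had 16 and 12 sites against 6 and 13. Zfp143, a promoter-binding activator, had 6 and 11 against 7 and 5. The last 2 overlap.

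Among neural and other developmental regulators, 5 of 6 were members. Both dTAG13 libraries lay below both untreated ones in 2 of the 5 (background 44.6%). Of these members 1, Zfp521, was called (background 4.09% lower). Its close relative Zfp423, a partner of EBF factors, had 23 and 23 sites against 9 and 9, the groups apart (log2 change -1.26 ± 0.40, robust limma adjusted p = 0.0646). Coverage of Zfp423 was 99.6 and 112 against 90 and 106. Zfp503 had 35 and 50 sites against 36 and 34, and its relative Zfp703 had 7 and 13 against 4 and 8. Zfp335, a chromatin factor of neural progenitors, had 6 and 5 against 4 and 7. These 3 overlap. Zfp536 was no member, with 0 and 4 sites against 1 and 4.

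Among RNA, ribosome and spindle factors, 6 of 7 were members and 1, Zfp326, was called (background 4.09% lower). Both dTAG13 libraries lay below both untreated ones in 4 of the 6 (background 44.6%). Zfp598, the ubiquitin ligase that marks collided ribosomes, had 37 and 27 sites against 16 and 21. Zfp622, a factor of large ribosomal subunit maturation, had 21 and 17 against 13 and 11, and Zfp638 had 46 and 63 against 42 and 32. In these 3 the groups are apart, with robust limma adjusted p of 0.156, 0.347 and 0.183. Zfp207, a spindle and splicing factor, had 54 and 73 against 46 and 75, and Zfp106 had 68 and 76 against 45 and 72. Zfp207 overlaps, as does Zfp106. Zfp36, which encodes the mRNA decay factor tristetraprolin, was no member, with 5 and 8 sites against 1 and 0. Zfp217, reported to bind METTL3 in embryonic stem cells, had 36 and 27 against 15 and 15, the groups apart (log2 change -1.01 ± 0.34, robust limma adjusted p = 0.0740).

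Coverage of Zfp genes stood higher relative to other genes with dTAG13, although no single gene passed the test. On the centred log2 scale their median lay at -0.50 and -0.61 untreated and at -0.28 and -0.38 with dTAG13, so the groups do not overlap. The median log2 change was 0.14 in members and -0.07 in other genes. It was 0.06 against -0.15 with no centring and 0.09 against -0.01 after quantile normalization, so the sign held in members under all 3. Members were read less deeply, with a median of mean coverage of 72.6 against 99.2 in other genes. The change in coverage was not compared within classes of coverage, and the part of depth in it was not tested. Both dTAG13 libraries lay above both untreated ones in 82 members (29.1%, background 17.0%) and below in 31 (11%, background 29.2%). Limma called 0 members and 0.0% of all genes, with 31 members (6 of them lower) at an unadjusted p under 0.05 against 16.3% of all genes. The smallest adjusted p among members was 0.106. Without dTAG13 replicate 2, 2 members (Zfp276 and Zfp341) were called higher and 0 lower, against 25 higher and 109 lower over all genes.

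The members with the smallest p for coverage, chosen after their values were seen, were Zfp746, Zfp935 and Zfp971. Zfp746 had coverage of 62.1 and 66.8 without dTAG13 and 110 and 168 with it (log2 change 1.16 ± 0.23, limma adjusted p = 0.106). Zfp935 had 49.9 and 35.9 against 89.4 and 127, and Zfp971 had 74.9 and 66.3 against 141 and 144. In all 3 the groups are apart. Zfp90 went the other way, with 87.9 and 94.3 against 40.0 and 31.8 (log2 change -1.27 ± 0.35, limma adjusted p = 0.145). In bulk RNA, fewer cells that express a gene and less of its RNA per cell cannot be told apart.

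From the machinery that KRAB zinc finger proteins recruit and its partners, a list of 13 genes was chosen, and all 13 were in all 4 tables. Robust limma called 2 of 13 lower in site number (background 4.09%), 0 higher and 0 in coverage. Atf7ip, which stabilises SETDB1, had 66 and 57 sites against 24 and 35 (adjusted p = 0.0247). Dnmt1, the maintenance DNA methyltransferase, had 84 and 86 against 41 and 55 (adjusted p = 0.0290). The groups were apart, dTAG13 below, in 8 of 13 (background 44.6%), and the median log2 change was -0.30, against -0.45 over all genes. Trim28 itself had 29 and 45 sites against 47 and 36, and Setdb1 had 40 and 40 against 33 and 55, both with overlapping groups.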

How the data were processed

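The 4 site tables were used as deposited. Per the file headers, the authors' columns give the counts of A and G reads and of A reads per called site, the level (a fraction, equal to the ratio of these counts at 100.0% of sites), the conversion rate of the gene (also a deposited fraction), the coverage signal of the gene, and a p-value with its adjusted value. Values were not scaled between libraries. The submitters' processing notes name mm10, but contig names are those of GRCm39, and 12.98% of member sites fell in the GRCm38 RefSeq interval of their gene, so coordinates are given as listed and no sequence was read. Aligner and caller are not given in the sources used here. Reads summed over member sites were 537811 and 635738 (untreated) and 345442 and 563816 (dTAG13).

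Members were matched by name, and all 282 symbols were in the RefSeq table. Members, gene lists and the rule for naming genes were chosen with earlier results of these data known. The rule took the genes with the most sites, the extremes of sites per coverage (mean coverage of at least 20) and of change in site number (mean of at least 10 sites), every call, the member sites listed in all 4 tables, the 5 largest falls in level and fixed role genes. For single values per library an exact two-sided permutation test was used. Levels were tested with a quasi-binomial model of A and G reads whose dispersion was moderated with limma 3.58.1, site numbers with limma on log2(sites + 1) with trend and, added after a plain fit gave 0 calls, robust moderation, and coverage with limma on median-centred log2 values. The Benjamini-Hochberg adjustment ran over all features, with a threshold of 0.05. Tests with edgeR 4.0.16, Fisher's exact test, other filters, a replicate block and leaving out each library are in the closing section. Shares have Wilson 95% intervals. The fits were tested on simulated data. Of 8-fold falls in site number, in genes with a mean of at least 10 sites, 83% were recovered with robust moderation and 0% without. Falls in level from 95% to 30% were recovered in 88% and 8-fold falls in coverage in 100%. Smaller changes, and a change shared by most genes, were not simulated. Same-numbered libraries did not deviate together (correlations -0.004 in site number, 0.002 in coverage and 0.019 in level), so the numbers were not taken to pair them.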

Additional observations from a re-analysis of the deposited data

How the results depend on the processing

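The ratio of member sites (0.751) ranged from 0.682 to 0.820 when 1 library was left out, sites per coverage (0.727) from 0.693 to 0.760, recovery (0.534) from 0.465 to 0.603, the clustering difference (-5.77 points) from -6.42 to -5.12 and the share of sites (0.0836 points) from 0.0109 to 0.156. These kept their direction in every alternative run. The share of sites went to 0.0109 without dTAG13 replicate 2 and to 0.0188 at a level of at least 20%, and recovery went to 0.264 at a level of at least 50%. Members called in site number (4) fell to 0 without robust moderation, with the replicate block and divided by coverage, and so did the calls over all genes. Without any 1 library, which leaves 1 in a group, the calls of members and of all genes were lost too. With edgeR on total listed sites the lower calls fell to 0 and 2 other members were higher (all genes: 17 lower, 33 higher). Lower calls rose to 12 with edgeR at equal library sizes (all genes 909) and to 14 at a mean of at least 5 sites (all genes 966). The called site (1) fell to 0 at 50 reads, where the Zfp292 site was not tested (all sites: 40 lower, 1 higher). It fell to 0 with the replicate block too, as did the calls over all sites. Without any 1 library, which leaves 1 in a group, the calls of members and of all sites were lost. Calls rose to 5, 4 lower and 1 higher, with Fisher's exact test on summed replicates (all sites: 296 lower, 235 higher). That test ignores the spread between libraries. Calls of members in coverage (0) changed only without dTAG13 replicate 2, which leaves 1 library in a group. With the replicate block they stayed at 0, against 6 lower and 2 higher over all genes. With no centring they stayed at 0 too, against 14 lower and 6 higher over all genes. With 2 libraries per group, fewer samples alone can end a call, and the cause was otherwise not tested. Sites of 15 to 49 reads fix a level poorly. Matching on conversion and the robust fit were chosen after seeing the data.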
